A study of Mus musculus with 4 samples.

Results

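The genes of the cohesin, condensin and SMC protein machinery were examined in B16F10 cells, a melanoma line of C57BL/6 mice, after knockdown of Lmna. Members were taken by gene symbol: Smc1a, Smc2, Smc3, Smc4, Smc5, Smc6, Rad21, Stag1, Stag2 and Ncapg2, which are 10 of the 24421 genes in the count matrix. All 10 were found, and 9 of them had enough counts to be tested. Lmna encodes lamin A and lamin C, filament proteins that line the inner face of the nuclear envelope.

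RNA was sequenced from bulk cultures by MARS-seq, which reads the 3′ ends of transcripts, in 2 libraries from shControl cells and 2 from shLmna cells. The shLmna cells stably expressed a hairpin against Lmna, and the shControl cells carried the same kind of lentiviral vector without a hairpin. Both populations had been transduced and selected with puromycin, and both were grown untreated. The knockdown rests on a single hairpin in a single line, and the sources used here do not say if libraries with the same label were made from different cultures. P-values therefore measure the spread between these libraries, which may be technical.

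Library totals ranged from 2494880 to 3808843 counts. Lmna itself, the check of the labels, had 2826 and 2684 counts in the shControl libraries and 331 and 480 in the shLmna libraries, which gave -2.61 on the log2 scale (adjusted p 7.93e-06 in edgeR). None of the 7 melanocyte markers was at 0 in any library (summed 19728 to 24690 CPM, counts per 1000000), although Tyr, the enzyme that starts melanin synthesis, had only 1 to 7 counts. Of 8 markers of immune, endothelial, epithelial and stromal cells, 4 to 7 were at 0 and all together had 2 to 19 counts per library.

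SMC proteins are long ATPases that fold back on themselves, pair through a hinge and are closed into a ring by a protein called a kleisin. In cohesin, Smc1a and Smc3 are joined by the kleisin Rad21 and by either Stag1 or Stag2. The ring holds sister chromatids together until anaphase and forms chromatin loops that stop at sites bound by Ctcf. In condensin, Smc2 and Smc4 are shared by a form called condensin I and a form called condensin II, which differ in their other subunits and compact chromosomes for mitosis. Smc5 and Smc6 are the core of a separate complex that acts in DNA repair and in the resolution of replication intermediates.

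The promoters of Smc2 and Ncapg2, both condensin genes, are shown because these members had the largest rise and the largest fall among those tested. Each is the 250 bases before the gene's start in RefSeq (GRCm38.p6), both on the plus strand, at chr4:52438971-52439220 for Smc2 and at chr12:116405186-116405435 for Ncapg2. Capitals mark matches, on either strand, to motifs known from promoters of cell cycle genes: the box CCAAT, the cell cycle homology region TTTGAA and the E2F site, searched in a form TTGGCGC, a form written TTCCCGC, a further form written TTCGCGC and a last form written TTGCCGC.
Smc2: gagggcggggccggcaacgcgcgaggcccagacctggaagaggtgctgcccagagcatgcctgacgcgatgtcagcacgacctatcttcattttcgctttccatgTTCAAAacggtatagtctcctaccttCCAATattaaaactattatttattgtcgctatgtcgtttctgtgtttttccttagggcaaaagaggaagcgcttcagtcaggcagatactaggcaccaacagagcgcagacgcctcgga
Ncapg2: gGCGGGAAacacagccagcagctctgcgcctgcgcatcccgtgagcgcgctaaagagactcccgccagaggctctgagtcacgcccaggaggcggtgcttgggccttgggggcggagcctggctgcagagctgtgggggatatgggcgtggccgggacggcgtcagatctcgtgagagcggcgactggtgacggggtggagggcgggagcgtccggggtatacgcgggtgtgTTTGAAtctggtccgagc

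The Smc2 window held a CCAAT that ended 114 bases before the start and a TTTGAA, read on the opposite strand, 139 bases before it. The Ncapg2 window held a TTTGAA 12 bases before the start and an E2F form, TTCCCGC read on the opposite strand, 242 bases before it. These distances are to the RefSeq start. The GENCODE M21 annotation, used for gene positions below, starts Ncapg2 at 116405402, inside the window and ahead of this TTTGAA. The marked matches did not overlap. Both windows held more of the dinucleotide CG than the median of 6 over 32851 such windows. Smc2 had 16, which is the upper quartile of those windows, and Ncapg2 had 24. Sequences were matched for 7 of the 10 members (Smc1a, Smc2, Smc3, Smc5, Smc6, Stag1 and Ncapg2): CCAAT was in 3 of these 7 and in 33.8% of all windows, TTTGAA in 3 of 7 and in 16%, and an E2F form in 2 of 7 and in 7.89%. The windows of Smc5 and Stag1 lay inside the spans that GENCODE M21 gives these genes. A match is a description of the letters only.

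Among the 9 members tested in shLmna against shControl cells, 4 fell (Smc3, Rad21, Smc4 and Ncapg2), 2 rose (Stag1 and Smc2) and 3 did not pass (Smc1a, Smc5 and Smc6). The test was edgeR's quasi-likelihood test on the counts, with a limit of 0.05 on the p adjusted over all 9150 genes tested. Over all those genes 9.74% fell and 5.48% rose. With the study's stricter limits, which also ask for a log2 fold change beyond 1 in size and a mean normalized count over 5, Smc4 and Ncapg2 were lower and Smc2 higher, where 5.88% of all tested genes were lower and 1.76% higher. The median log2 fold change of the 9 was -0.48 (range -5.64 to 1.13), beside -0.00 over all tested genes. Smc4 and Ncapg2 reached the filter on low counts through the shControl libraries alone, so these counts describe the list and do not support a direction for it. The shLmna libraries lay wholly below the shControl libraries for 5 of the 9 and wholly above for 3, where 60.1% of all tested genes had groups that did not overlap. In bulk RNA, fewer cells of a type and less RNA per cell cannot be told apart.

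**Figure D1:**
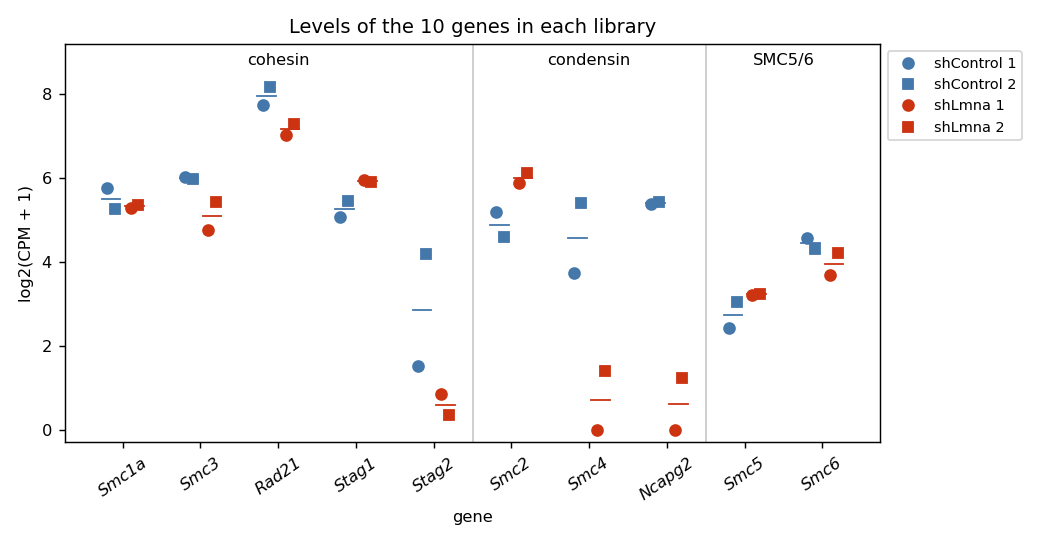
Level of each member in each library, as log2(CPM + 1), with circles and squares for the libraries of a group and a short line at their mean on that scale. Ncapg2 and Smc4 lie between 0 and 1.63 CPM in the shLmna libraries, while Smc2 and Stag1 lie higher there than in the shControl libraries.

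CPM values are scaled by TMM, which corrects library sizes for a few dominant genes. They are counts at 3′ ends, which do not grow with transcript length. Gene positions are those of GENCODE M21 on GRCm38, the assembly that UCSC calls mm10.

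Of the cohesin ring genes, Smc3 and Rad21 fell and Smc1a did not pass the test. All had negative log2 fold changes with overlapping 95% intervals, and a difference between the genes was not tested. Smc1a (chromosome X, 152016428 to 152062694, plus strand), an SMC subunit of the ring, had 53.0 and 37.2 CPM in the shControl libraries and 38.4 and 39.8 CPM in the shLmna libraries. The groups overlapped, since shControl 2 lay below both shLmna libraries. The log2 fold change was -0.20 (SE 0.20, 95% interval -0.65 to 0.25, edgeR adjusted p 0.550).

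Smc3 (chromosome 19, 53600398 to 53645833, plus strand), the partner of Smc1a, had 63.8 and 62.1 CPM in shControl and 26.1 and 42.2 CPM in shLmna. Both shLmna libraries lay below both shControl libraries, and the spread was wider in shLmna (34.2 ± 11.4, SD, n = 2) than in shControl (63.0 ± 1.2, SD, n = 2). Smc3 was 1.81-fold lower, a log2 fold change of -0.86 (SE 0.21, 95% interval -1.33 to -0.38, edgeR adjusted p 0.0240). The call did not hold with DESeq2 (adjusted p 0.0633), nor without shLmna 1, where the log2 fold change was -0.57 (edgeR adjusted p 0.164).

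Rad21 (chromosome 15, 51962240 to 51991747, minus strand), the kleisin that separase cuts at anaphase, was the cohesin member with the most counts, 692 and 1081 in shControl and 329 and 575 in shLmna. These were 214.3 and 289.4 CPM against 130.1 and 156.7 CPM, and the groups did not overlap. Rad21 was 1.75-fold lower, from 251.9 ± 53.1 to 143.4 ± 18.8 CPM (SD, n = 2 each), a log2 fold change of -0.81 (SE 0.16, 95% interval -1.18 to -0.44, edgeR adjusted p 0.00990). Without shLmna 1 or without shLmna 2 the edgeR adjusted p was 0.109 or 0.0619, with log2 fold changes of -0.68 and -0.94.

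The alternative cohesin subunits Stag1 and Stag2 moved apart in their counts, with a test for Stag1 alone. Stag1 (chromosome 9, 100597798 to 100959375, plus strand) had 32.8 and 43.1 CPM in shControl and 60.9 and 58.9 CPM in shLmna. Both shLmna libraries lay above both shControl libraries. Stag1 was 1.57-fold higher, a log2 fold change of 0.65 (SE 0.18, 95% interval 0.26 to 1.04, edgeR adjusted p 0.0347). The call was lost with DESeq2 (adjusted p 0.169) and, in edgeR, without shControl 1 (0.0829), shLmna 1 (0.175) or shLmna 2 (0.158).

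Stag2 (chromosome X, 42149317 to 42277185, plus strand) had 6 and 64 counts in shControl against 2 and 1 in shLmna, and it did not pass the filter on low counts. The counts came almost wholly from shControl 2, and shControl 1 lay close to the shLmna libraries. Summed over the libraries of a group and scaled to their size, the shControl counts were 20.8 times the shLmna counts (exact binomial 95% interval 6.82 to 103.1, counting error only). That interval leaves out the difference between the shControl libraries. With no filter, edgeR gave a log2 fold change of -4.20 (adjusted p 2.22e-10), and DESeq2 gave -4.23 (adjusted p 0.0190). Stag2 passed the filter in the fits without shControl 1, shLmna 1 or shLmna 2, where edgeR gave log2 fold changes of -5.03, -4.97 and -3.52 with adjusted p of 1.55e-09, 0.105 and 0.244. In the batch-corrected log2 values the difference was -0.32 (limma adjusted p 0.104).

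Among the 9 members tested, the condensin members Ncapg2, Smc4 and Smc2 had the largest log2 fold changes in size, and the SMC partners Smc2 and Smc4 moved in opposite directions. Smc2 (chromosome 4, 52439243 to 52488260, plus strand) had 35.6 and 23.0 CPM in shControl and 58.5 and 68.4 CPM in shLmna. The groups did not overlap. Smc2 was 2.18-fold higher, from 29.3 ± 8.91 to 63.5 ± 6.97 CPM (SD, n = 2 each), a log2 fold change of 1.13 (SE 0.22, 95% interval 0.65 to 1.61, edgeR adjusted p 0.00736). Without shLmna 2 the log2 fold change was 1.01 and the edgeR adjusted p 0.110.

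Smc4 (chromosome 3, 69004738 to 69034623, plus strand), the other SMC subunit of condensin, had 40 and 154 counts in shControl against 0 and 6 in shLmna. These were 12.4 and 41.2 CPM against 0 and 1.63 CPM, so both shLmna libraries lay below both shControl libraries, although the shControl libraries differed widely from each other. The fitted log2 fold change was -4.77 (SE 0.79, 95% interval -6.54 to -3.00, edgeR adjusted p 0.00355). From summed counts, shControl was 28.8 times shLmna (exact binomial 95% interval 13.0 to 79.4, counting error only). As for Stag2, that interval leaves out the difference between the shControl libraries. DESeq2 gave a log2 fold change of -4.97 (adjusted p 0.0644). All shLmna counts were in shLmna 2, and without it the fitted log2 fold change of -9.41 depends on the prior count and is no bound.

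Ncapg2 (chromosome 12, 116405402 to 116463731, plus strand) encodes a subunit of condensin II that is not part of condensin I, and it had 132 and 158 counts in shControl against 0 and 5 in shLmna. The shControl libraries were close, at 40.9 and 42.3 CPM, and the shLmna libraries were at 0 and 1.36 CPM. The groups lay far apart, with 41.6 ± 1.0 against 0.681 ± 0.963 CPM (SD, n = 2 each). The fitted log2 fold change was -5.64 (SE 0.47, 95% interval -6.69 to -4.59, edgeR adjusted p 4.73e-05). From summed counts shControl was 51.6 times shLmna (exact binomial 95% interval 21.9 to 160.2, counting error only). As for Smc4, the shLmna counts were all in shLmna 2, and without it the fitted value was -10.04. Ncapg2 passed under every alternative setting that kept all 4 libraries, with adjusted p up to 0.00213 (limma). With a library left out, the log2 fold change ranged from -10.04 to -4.89. These settings refit the same libraries, and Ncapg2 reached the filter on low counts through shControl alone, so they describe the fits only.

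The SMC5/6 members did not pass the test in either direction. Smc5 (chromosome 19, 23206451 to 23273897, minus strand) had 14 and 27 counts in shControl against 21 and 31 in shLmna, or 4.34 and 7.23 against 8.31 and 8.45 CPM. The log2 fold change was 0.52 (SE 0.36, 95% interval -0.29 to 1.33, edgeR adjusted p 0.374), so no change was detected. Smc6 (chromosome 12, 11265886 to 11319785, plus strand) had 22.9 and 19.0 CPM in shControl and 11.9 and 17.7 CPM in shLmna. The groups did not overlap for either gene, with Smc5 values higher and Smc6 values lower in the shLmna libraries. Smc6 had a log2 fold change of -0.48 (SE 0.26, 95% interval -1.06 to 0.11, edgeR adjusted p 0.259).

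**Figure D2:**
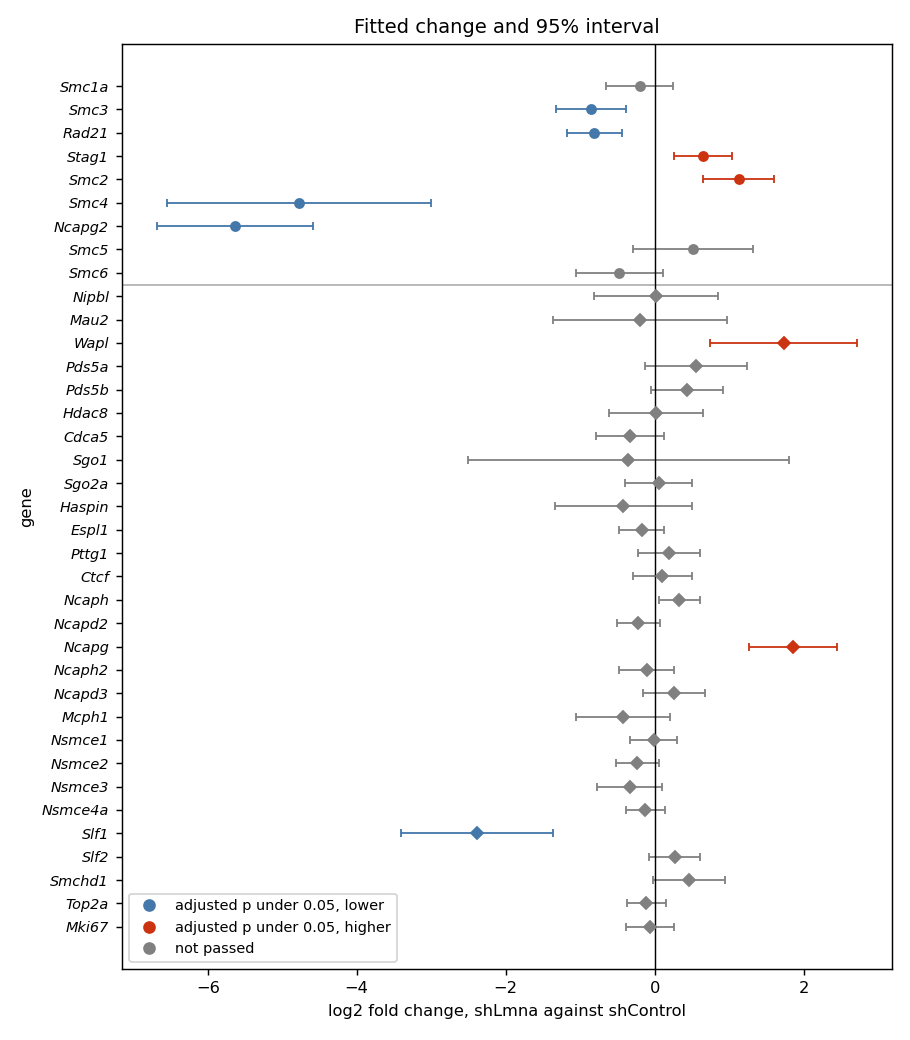
Log2 fold change (shLmna minus shControl) with its 95% interval from edgeR. Circles show the 9 tested members and, under a line, diamonds show the 28 tested genes of the further list described below. Among the members, Ncapg2 and Smc4 stand at -5.64 and -4.77, and the intervals of Smc1a, Smc5 and Smc6 include 0.

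Within complexes, the share of counts that fell to each partner was read in each library. These shares were not tested, because an exact permutation test of 2 libraries against 2 cannot go below 0.333. Of the Smc2 and Smc4 counts, Smc4 took 25.8% (Wilson 95% interval 19.6 to 33.2) and 64.2% (57.9 to 70.0) in the shControl libraries. In shLmna 1 it took 0 of 148 counts, which allows a share of up to 2.03% taking 3 counts as the limit (Wilson upper bound 2.53%), and in shLmna 2 it took 2.33% (1.07 to 5.0).

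Ncapg2 was set beside Ncapg, the corresponding subunit of condensin I. Ncapg2 took 79.0% and 66.9% of the counts of this pair in shControl. In shLmna 1 it took 0 of 152 counts, which allows a share of up to 1.97% taking 3 counts as the limit (Wilson upper bound 2.46%), and in shLmna 2 it took 2.36%. For both condensin pairs the counting intervals of the groups did not overlap. These intervals leave out the spread between libraries, and for Smc4 those of the shControl libraries did not overlap each other either. Smc4 and Ncapg2 reached the filter on low counts through shControl alone, so these shares are a description only.

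In cohesin, Stag2 took 5.36% (Wilson 95% interval 2.48 to 11.2) and 28.4% (22.9 to 34.7) of the counts of the Stag pair in shControl, and 1.28% (0.352 to 4.55) and 0.461% (0.0814 to 2.56) in shLmna. The intervals of shControl 1 and of both shLmna libraries overlapped. Smc3 took 54.6% and 62.5% of the counts of Smc1a and Smc3 in shControl and 40.5% and 51.5% in shLmna, and the Wilson intervals of shControl 1 (49.6 to 59.6) and shLmna 2 (45.9 to 57.1) overlapped. Smc6 took 84.1% and 72.4% of the counts of Smc5 and Smc6 in shControl and 58.8% and 67.7% in shLmna. The counting interval of shControl 2 overlapped those of both shLmna libraries, and that of shControl 1 overlapped that of shLmna 2.

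**Figure D3:**
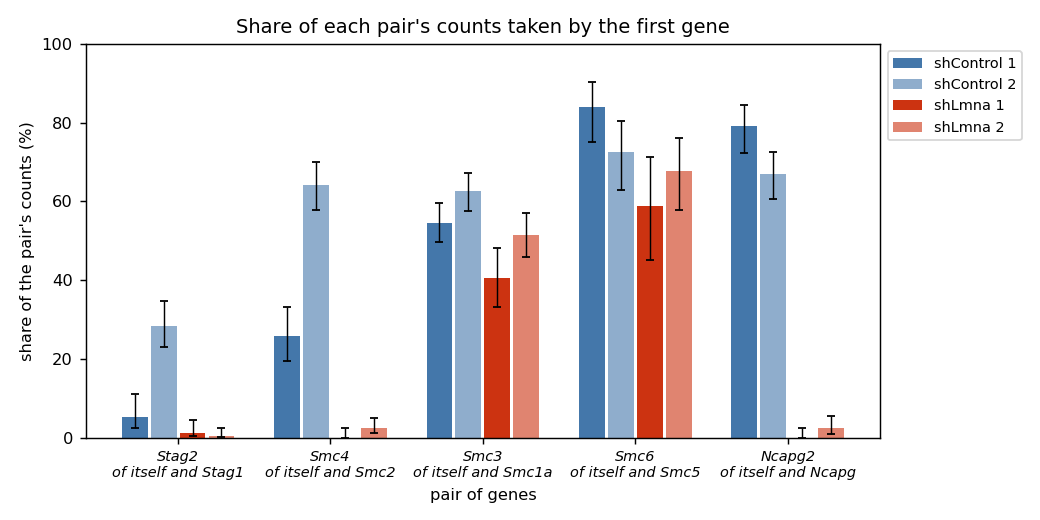
Share of the counts of 5 gene pairs taken by the first gene of each pair, in percent, in each of the 4 libraries, with Wilson 95% intervals. Smc4 and Ncapg2 take at most 2.36% in the shLmna libraries, and the intervals of some shControl and shLmna libraries overlap for Stag2, Smc3 and Smc6.

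The genes that load, release, protect or extend these complexes were read from a further list of 35, of which 28 had enough counts. In edgeR 1 fell, 2 rose and 25 did not pass, beside the 9.74% and 5.48% of all tested genes. The median log2 fold change was -0.04 (range -2.38 to 1.86). The 3 that passed belong to different complexes. Wapl was over the filter's limit of 2.89 CPM in its shLmna libraries alone, and Slf1 in both shControl libraries and shLmna 2, so these counts too are a description only.

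Ncapg, the condensin I subunit named above, had 35 and 78 counts in shControl against 152 and 207 in shLmna. The shLmna libraries lay above the shControl libraries, at 58.3 ± 2.63 against 15.9 ± 7.10 CPM (SD, n = 2 each). The change was 1.86 on the log2 scale (SE 0.26, adjusted p 0.00139 in edgeR). Its counted 3′ end overlaps an exon of Lcorl on the opposite strand, and whether the counting used strand is not given in the sources used here.

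Slf1, listed under its older symbol Ankrd32, helps to bring the SMC5/6 complex to damaged DNA, and had 62 and 47 counts in shControl against 3 and 16 in shLmna. It was lower in both shLmna libraries, at -2.38 on the log2 scale (SE 0.46, adjusted p 0.00755 in edgeR). Slf1 was at -3.68 without shLmna 2 and at -1.85 without shLmna 1. With a smooth correction of each library for GC content it was at -1.62 (adjusted p 0.0484 in edgeR). Wapl, listed as Wapal, releases cohesin from DNA, and had 5 and 9 counts in shControl against 16 and 26 in shLmna. It was higher in both shLmna libraries, the only ones over the filter's limit, at 1.73 on the log2 scale (SE 0.44, adjusted p 0.0274 in edgeR). The Wapl call was lost with DESeq2 (adjusted p 0.300) and, in edgeR, without shControl 1 (0.0682), shLmna 1 (0.147) or shLmna 2 (0.243).

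Nipbl, which loads cohesin, had 22 and 22 counts in shControl against 20 and 19 in shLmna, a log2 fold change of 0.02 (95% interval -0.82 to 0.85, edgeR adjusted p 0.985). Ctcf, the boundary factor at which cohesin loops stop, had a log2 fold change of 0.10 (95% interval -0.30 to 0.50, edgeR adjusted p 0.753). Neither gene differed beyond the spread between libraries, and the interval for Nipbl is wide.

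Of the other condensin I subunits, Ncaph, its kleisin, had a log2 fold change of 0.33 (95% interval 0.06 to 0.61, edgeR adjusted p 0.0985) and Ncapd2 one of -0.22 (95% interval -0.51 to 0.07, edgeR adjusted p 0.288). Of the condensin II subunits that accompany Ncapg2, the kleisin Ncaph2 had a log2 fold change of -0.11 (95% interval -0.48 to 0.26, edgeR adjusted p 0.707), and Ncapd3 had one of 0.26 (95% interval -0.15 to 0.67, edgeR adjusted p 0.381). The 3′ end of Ncaph2 overlaps exons of Sco2 and Tymp on the opposite strand.

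The 7 genes with too few counts included the germline cohesin subunits Smc1b, Rec8, Rad21l and Stag3, each with at most 1 count in any library. Esco1 and Esco2, which acetylate Smc3, had counts mainly in shControl 2: Esco1 had 2 and 15 in shControl and 0 and 0 in shLmna, and Esco2 had 3 and 29 against 0 and 1. The last was Eid3, with 7 and 2 against 0 and 3 counts.

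The 3′ ends of the members are poor in G and C, between 31.1% and 43% GC with a median of 35.1%, beside a median of 46.9% over all tested genes. Calls were more frequent in both directions among such genes: of the 3027 tested genes at or under 43% GC, a limit set after the data were seen at the members' highest value, 17.6% fell and 8.42% rose, with a median log2 fold change of -0.01, against 5.78% and 4.0% above that limit. The part of base composition in the members' changes was not tested beyond the corrections that follow. A smooth correction of each library for GC content, made before the test, ended the call of Smc3 (log2 fold change -0.44, edgeR adjusted p 0.186). It turned Rad21 to 0.29 (adjusted p 0.125). Outlier-resistant smoothing, added after the data were seen, left Smc3 at -0.81 (adjusted p 0.0277) and Rad21 at -0.55 (adjusted p 0.0215). Smc4 and Ncapg2 stayed at -4.00 and -5.67 with the smooth correction, while Smc2 was at 1.84, Stag1 at 1.04 and Smc5, now past the limit, at 1.87 (edgeR adjusted p 0.00386).

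**Figure D4:**
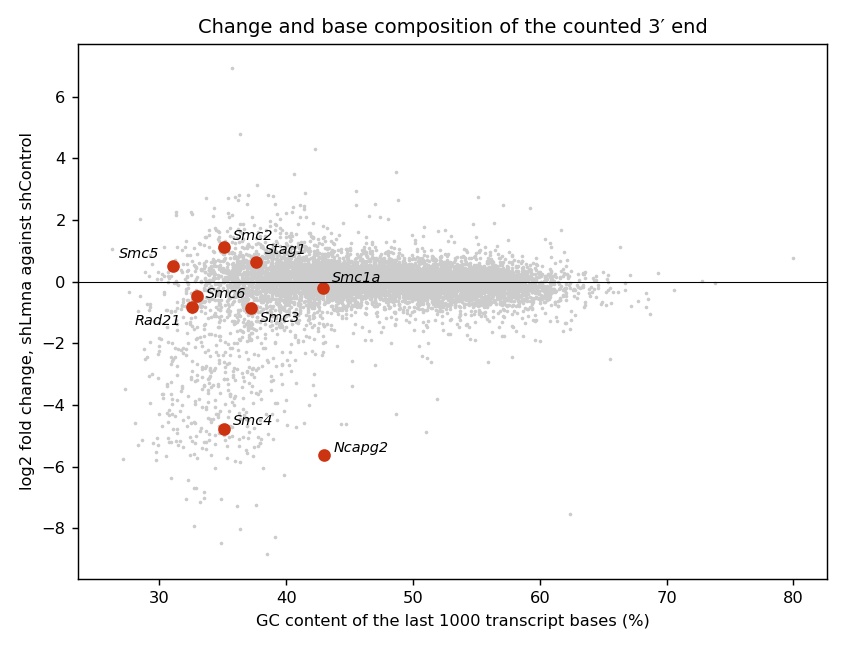
Log2 fold change (shLmna minus shControl) against GC content of the counted 3′ end, in percent, for all tested genes, with the members marked and named. The members lie between 31.1% and 43% GC and spread from -5.64 to 1.13.

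Scaling by RLE or upper quartile factors left the direction of all 9 tested members, and over all genes the median log2 fold change was at most 0.0545 in size in every setting. The members differed in how firmly their calls held across tools, corrections and omitted libraries.

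**Figure D5:**
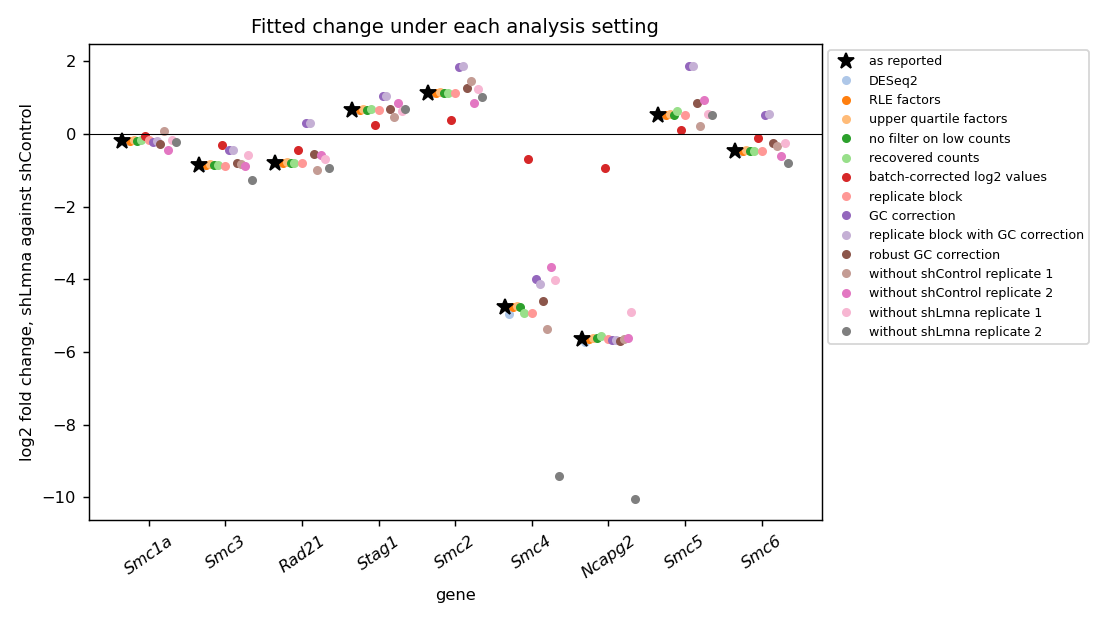
Log2 fold change of each tested member under each setting, as reported and under the alternatives. Ncapg2 is at or below -4.89 in every setting on counts and at -0.93 in the batch-corrected log2 values, whereas Rad21 and Smc6 cross 0 under the smooth GC correction.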

How the data were processed

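Bulk MARS-seq libraries of B16F10 cells (2 shControl, 2 shLmna) were analysed. The authors ran the UTAP pipeline (Cutadapt, STAR 2.4.2a to mm10, HTSeq) and counted reads over the last 1000 bases of RefSeq genes and 100 bases downstream. The deposited matrix holds raw counts for 24421 rows. The authors counted unique molecular identifiers after marking duplicates. Matrix totals were 1.08 to 1.09 times the counts recovered below, and which of these tables holds collapsed counts is not given in the sources used here. The exact binomial and Wilson intervals cover counting error only, unlike the edgeR intervals, which come from the quasi-likelihood fit. The authors also deposited size-factor normalized signal values, from which whole counts were recovered as an alternative, and ComBat-corrected log2 values, whose batches are not named. The deposited p-value columns hold their own comparison and were not used.

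Counts were tested with edgeR 4.0.16 (TMM, filterByExpr, glmQLFit, glmQLFTest, group only) in R 4.3.3, with Benjamini-Hochberg adjustment over 9150 genes at 0.05. Alternatives used DESeq2 1.42.0, limma 3.58.1 on the ComBat values, other scaling, no filter, a replicate block, GC corrections (loess, span 0.5) and each library left out. The script was tested on simulated data. Positions and GC content came from GENCODE M21. Members, gene lists and named genes (all members, pathway genes past the limit and 8 taken by function) were chosen with earlier results of these data known. The members' counted ends shared none of their 31-base words with transcripts of other genes, and none of these ends overlapped another gene's exons.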

Additional observations from a re-analysis of the deposited data

How the results depend on the processing

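Over all tested genes, the counts lower and higher were 589 and 218 with DESeq2, 1992 and 1784 with the batch-corrected log2 values (limma), and from 414 to 1329 and from 89 to 775 with a library left out; 866 were higher with the smooth GC correction and 1145 with the replicate block and GC correction. Members passing lower numbered 2 with the smooth GC correction, with or without the block, and 2 to 5 with a library left out. Members passing higher numbered 1 with DESeq2 and 0 to 2 with a library left out; without shLmna 2, where 0 passed in edgeR, 2 had an unadjusted p under 0.05. With the study's stricter limits, called members were 0 lower and 0 higher in the batch-corrected values (limma), whose differences are compressed, though 4 lower and 3 higher had an unadjusted p under 0.05; 3 were higher with the smooth GC correction, with or without the block, and 2 to 4 lower and 0 to 1 higher with a library left out. Pathway genes passing lower numbered 3 with no filter, 6 with batch-corrected values and 1 to 4 with a library left out, and passing higher 1 with DESeq2, 5 with the smooth GC correction, with or without the block, 8 with batch-corrected values and 1 to 3 with a library left out. The cause was not tested. The batches behind the corrected values are not named, so no within-batch value can be given.

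Smc6 turned to 0.53 with the smooth GC correction and 0.56 with the block as well, and Rad21 to 0.29 in both. With a library left out Smc1a ranged from -0.44 to 0.07, Ctcf from -0.10 to 0.31 and Nipbl from -0.29 to 0.33. Nipbl was -0.01 with batch-corrected values, -0.06 with recovered counts and -0.04 with robust GC smoothing. Libraries with the same replicate number did not deviate together (correlation of deviations 0.0129). This detects no pairing and cannot show that the libraries were not made in pairs. With the replicate block 852 tested genes were higher, and 4 members fell and 2 rose as before. Leaving out a library leaves 1 in its group, assumed to vary like the other group.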
